A study of Homo sapiens with 8 samples.

Results

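The translation initiation factor genes were taken as every gene of the deposited tables whose symbol begins with EIF1, EIF2B, EIF2S, EIF3, EIF4, EIF5 or EIF6, leaving out EIF1AY and the EIF2AK kinases. The rule found 44 of 15902 listed genes, with 382 of 142206 introns. It uses symbols and no measured values, but was chosen with earlier results of these data known. The genes were followed in 8 RNA sequencing libraries of SUM159, an established human line of triple-negative breast cancer whose cells look mesenchymal. Cells received H3B-8800, a splicing modulator that targets SF3b in the spliceosome, or the solvent DMSO as vehicle, for 12 h. The 4 groups held 2 biological replicates each, and were J2 RNA with H3B-8800, J2 RNA with DMSO, input RNA with H3B-8800 and input RNA with DMSO. J2 RNA was immunoprecipitated with the antibody J2, which binds double-stranded RNA, and input RNA was sequenced without that step. All libraries were made from polyadenylated RNA of 1 cell line. The groups hold no immunoprecipitation with a control antibody, so that a difference between J2 RNA and input cannot be told apart from one caused by the precipitation itself.

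Initiation of translation brings the small ribosomal subunit to the start codon of an mRNA. The eIF4F complex, made of the cap-binding protein eIF4E, the scaffold eIF4G and the RNA helicase eIF4A, binds the 5′ cap, while eIF1, eIF1A, eIF3, eIF5 and the eIF2 complex with its initiator tRNA sit on the small subunit. eIF2B reloads eIF2 with GTP, and eIF5B joins the large subunit. SF3b, the target of the drug, recognises the branch point of introns, and introns that are not removed stay in the RNA.

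Depths ranged from 47000000 to 57000000 reads per library. Reads inside the introns of a gene (intronic) and reads spliced across them were summed per gene and are given scaled to depth as RPM, reads per 1e6 reads. A read that spans 2 introns counts at both, and no gene length enters, so RPM values compare groups within a gene and not genes with each other. Intronic reads made up 13.0% and 12.5% of all listed reads in J2 RNA with drug and 3.63% and 3.98% in J2 RNA with vehicle. They made up 13.0% and 10.3% in input with drug and 3.81% and 3.83% in input with vehicle. The sum of 8 mesenchymal markers was 1244 to 1682 RPM over the 8 libraries, all 8 markers were detected, and the 4 listed immune markers summed to at most 0.412 RPM. Luminal markers summed to 167 to 265 RPM, with 1 of 8 at 0, and nearly all of that sum came from KRT8 and KRT18. GATA3 had at most 2.33 RPM, and CDH1, EPCAM, KRT19 and ERBB3 at most 0.151 RPM. Of the fibroblast markers, 3 were listed and summed to 936 to 1482 RPM, nearly all of it from COL1A1. COL1A2 had at most 0.604 RPM and LUM at most 0.0189 RPM.

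Of the 44 genes, 43 passed the minimum of 1 RPM in at least 2 libraries for spliced reads, 29 passed the minimum for intronic reads (a mean of 0.2 RPM) and 42 that for the ratio of intronic to spliced reads. EIF4E1B, a paralog of EIF4E, had no read in any library. Spliced reads per listed intron, which set genes with many and few introns on 1 scale, were highest for EIF5A, the translation factor that carries hypusine, with 121 ± 4.0 RPM in J2 RNA with drug, 94.6 ± 4.15 RPM in J2 RNA with vehicle, 130.5 ± 4.90 RPM in input with drug and 77.0 ± 0.817 RPM in input with vehicle (SD, n = 2 each). EIF4EBP1, which encodes a repressor that binds eIF4E, came next with 62.5 ± 0.379 RPM per intron in input with vehicle, ahead of EIF1 with 39.7 ± 0.369, EIF6 with 33.9 ± 0.211 and EIF3I with 22.1 ± 0.201 (SD, n = 2). EIF4E itself ranked 39 of 44 there, with 0.399 ± 0.0186 RPM per intron. The eIF2B genes lay between 0.284 ± 0.0450 RPM per intron for EIF2B3 and 1.67 ± 0.00702 for EIF2B4 in the same libraries. Adjacent places low in that order, such as EIF5A2 (0.449 ± 0.0451), EIF4E (0.399 ± 0.0186) and EIF4E3 (0.340 ± 0.103), differed by about their SD or less.

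**Figure D1:**
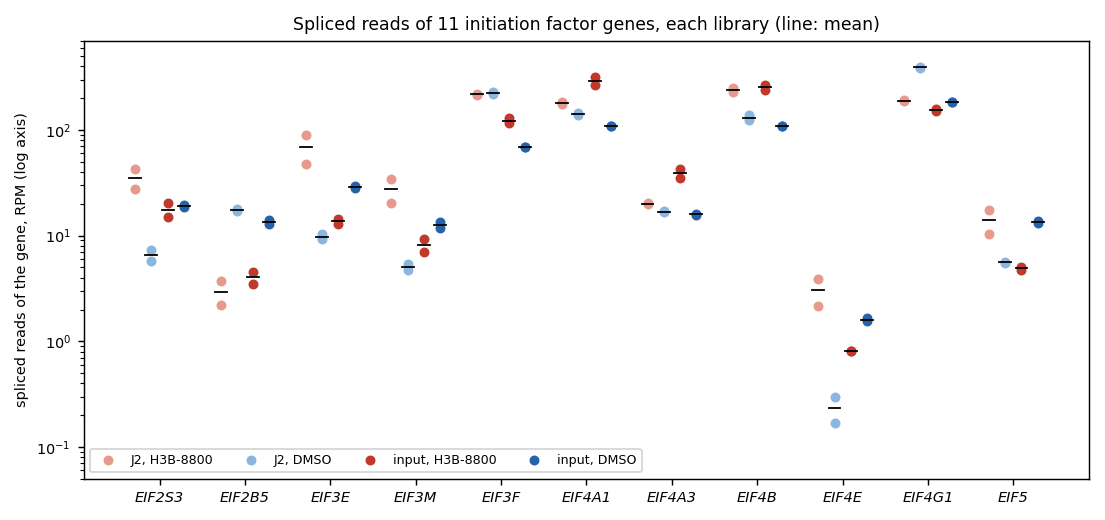
Spliced reads of 11 initiation factor genes in RPM on a log axis, each point 1 library and each line the mean of 2. From left to right in each gene stand J2 RNA with drug, J2 RNA with vehicle, input with drug and input with vehicle. EIF4E and EIF3E are higher with drug than with vehicle in J2 RNA and lower in the input.

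With H3B-8800, spliced reads of the 43 tested genes moved both ways, and not alike in J2 RNA and in the input. In J2 RNA 23 rose and 15 fell, where 34.6% and 39.4% of all 8461 tested genes did. In the input 15 rose and 15 fell, where 21.7% and 48.5% of all genes did. All 5 genes of the eIF4A helicases with eIF4B and eIF4H rose in both, and 4 of 5 eIF2B genes fell in both, EIF2B3 passing in neither. Changes are log2 fold changes of drug over vehicle from edgeR's quasi-likelihood test with Benjamini-Hochberg adjustment over all tested genes, called at an adjusted p under 0.05, and are given ± SE. The median over the 43 genes was 0.34 in J2 RNA and -0.09 in the input, and that over all genes -0.03 and -0.38. In the input the split rests on the scaling. Median-of-ratios scaling, which moved the all-gene median to 0.03, gave 25 higher and 6 lower, and TMM scaling gave 21 and 7, while in J2 RNA both gave 24 and 14. Shares of all genes, here and below, belong to the reported settings. Counts under other scalings or with a trend removed have no such share beside them, and are not to be read against those given. The input falls of EIF2B1, EIF2S2, EIF3B, EIF3D, EIF3M, EIF4E and EIF4G1 were not called as falls under either of these scalings, nor that of EIF2B4 under median-of-ratios. EIF3G, called lower in the input at -0.12, was called higher under both (0.29 and 0.16, adjusted p = 0.0016 and 0.027). Without input drug replicate 1, or without input vehicle replicate 1, 7 genes fell in the input.

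**Figure D2:**
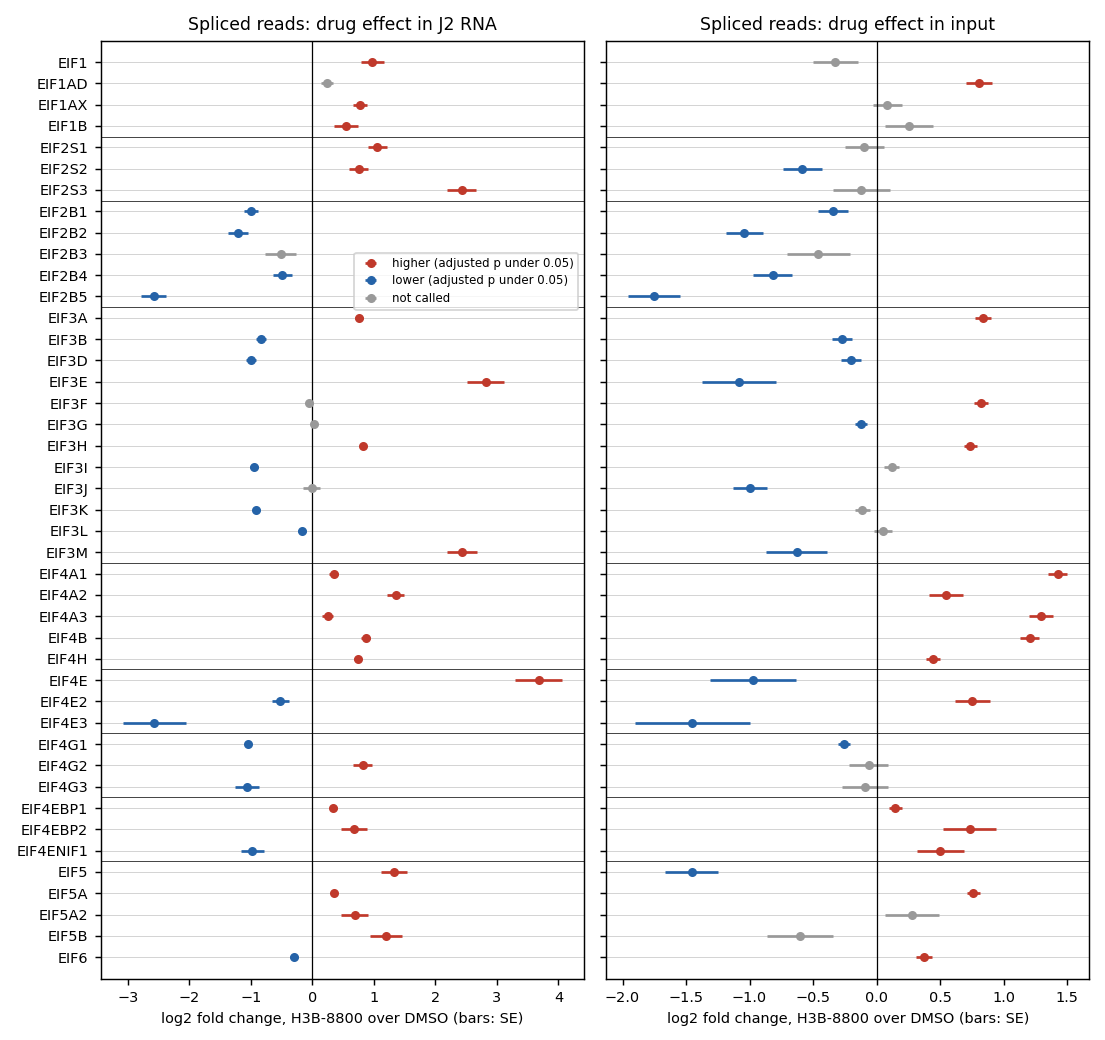
Log2 fold change of spliced reads, H3B-8800 over DMSO, for the 43 tested genes in J2 RNA (left) and input (right), with SE bars. Lines separate the factor groups, colours give the call, and the horizontal scales differ. The eIF2B genes lie left of 0 in both panels and the eIF4A, eIF4B and eIF4H genes right of 0.

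eIF2 is the trimer that carries the initiator tRNA. In J2 RNA all 3 of its genes rose (median 1.06), where 34.6% of all genes did. In the input 1 fell and 2 did not pass, where 48.5% of all genes fell (median -0.12, turning to 0.29 with median-of-ratios and 0.16 with TMM scaling). EIF2S3, the gamma subunit that binds the tRNA and GTP, had 27.6 and 42.6 RPM in J2 RNA with drug, against 7.34 and 5.75 RPM in J2 RNA with vehicle. It had 14.9 and 20.2 RPM in input with drug, against 19.3 and 18.9 RPM in input with vehicle. The J2 libraries with drug lay above those with vehicle, while the input groups overlapped. The log2 change was 2.43 ± 0.24 (edgeR adjusted p = 3.2e-05) in J2 RNA and -0.12 ± 0.22 (edgeR adjusted p = 0.65) in the input. EIF2S1, the alpha subunit that stress kinases phosphorylate, had 8.80 and 11.2 RPM in J2 RNA with drug, against 5.36 and 4.28 RPM in J2 RNA with vehicle, a change of 1.06 ± 0.16 (edgeR adjusted p = 0.00015). In input RNA it had 9.11 and 10.8 RPM with drug and 10.4 and 10.9 RPM with vehicle, which overlapped. EIF2S2, the beta subunit, changed by 0.75 ± 0.15 (edgeR adjusted p = 0.0019) in J2 RNA and by -0.58 ± 0.15 (edgeR adjusted p = 0.0080) in the input, and both pairs of groups stood apart. With the trend on GC content removed, the J2 change of EIF2S1 came to 0.27 (adjusted p = 0.090) and was no longer called.

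eIF2B is the exchange factor of eIF2, with 5 different subunits. Its genes fell in both RNA fractions, 4 of 5 in J2 RNA (median -0.99) and 4 of 5 in the input (median -0.82, and -0.41 with median-of-ratios scaling, where 2 of 5 fell). Among all genes 39.4% fell in J2 RNA and 48.5% in the input. EIF2B5, the catalytic epsilon subunit, had 3.70 and 2.19 RPM in J2 RNA with drug, against 18.0 and 17.1 RPM in J2 RNA with vehicle. Its input values were 4.53 and 3.52 RPM with drug, against 13.0 and 14.1 RPM with vehicle. Neither pair of groups overlapped, and EIF2B5 fell by 2.58 ± 0.21 in J2 RNA (edgeR adjusted p = 2.3e-06) and by 1.75 ± 0.20 in the input (adjusted p = 3.3e-05) on the log2 scale. EIF2B2, the beta subunit, had 1.36 and 1.51 RPM in J2 RNA with drug, against 3.38 and 3.26 RPM in J2 RNA with vehicle, a change of -1.21 ± 0.16 (edgeR adjusted p = 6.0e-05). It had 3.79 and 3.6 RPM in input with drug, against 7.50 and 7.71 RPM in input with vehicle, a change of -1.04 ± 0.15 (edgeR adjusted p = 1.0e-04). EIF2B1, the alpha subunit, had 5.50 and 5.58 RPM with drug and 10.7 and 11.4 RPM with vehicle in J2 RNA, a change of -0.99 ± 0.12 (edgeR adjusted p = 2.5e-05). Its input change of -0.34 turned to 0.07 under median-of-ratios scaling. EIF2B4, the delta subunit, fell in J2 RNA (-0.49 ± 0.15, edgeR adjusted p = 0.014, but -0.14 and not called with the trend on GC content removed) and in the input (-0.82 ± 0.15, edgeR adjusted p = 0.00087), and the difference between these changes, 0.33 ± 0.22, did not pass (edgeR adjusted p = 0.23). EIF2B3, the gamma subunit, had 1.49 and 2.23 RPM with drug and 2.27 and 2.84 RPM with vehicle in the input (-0.46 ± 0.25, edgeR adjusted p = 0.12), and did not pass in J2 RNA either (-0.52 ± 0.25).

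eIF3 is the largest initiation factor, a multi-subunit complex on the small ribosomal subunit, and 12 of its genes were tested. In J2 RNA 4 rose and 5 fell, and in the input 3 rose and 6 fell (medians -0.03 and -0.12, turning to 0.04 and 0.30 with median-of-ratios scaling and to 0.05 and 0.17 with TMM). These counts lie near the shares of all genes, 34.6% and 39.4% in J2 RNA and 21.7% and 48.5% in the input. EIF3E and EIF3M went in opposite directions in the fractions. EIF3E, the subunit also known as INT6, had 47.9 and 89.4 RPM in J2 RNA with drug, against 10.3 and 9.25 RPM in J2 RNA with vehicle. In the input it had 12.8 and 14.5 RPM with drug, against 29.3 and 28.5 RPM with vehicle. It rose by 2.81 ± 0.30 (edgeR adjusted p = 0.00023) in J2 RNA and changed by -1.08 ± 0.29 (edgeR adjusted p = 0.016) in the input, a difference of 3.90 ± 0.41 (edgeR adjusted p = 0.00068). The input call of EIF3E was lost without input drug replicate 1 (-1.0, adjusted p = 0.079) and without input vehicle replicate 1 (-1.06, adjusted p = 0.051). EIF3M had 20.4 and 34.4 RPM in J2 RNA with drug, against 4.75 and 5.40 RPM in J2 RNA with vehicle. Its input values were 7.06 and 9.31 RPM with drug and 13.4 and 11.9 RPM with vehicle, and the changes were 2.43 ± 0.25 (edgeR adjusted p = 3.1e-05) in J2 RNA and -0.63 ± 0.24 (edgeR adjusted p = 0.044) in the input. The input change of EIF3M came to -0.22 with median-of-ratios and -0.35 with TMM scaling, and was called under neither. For both genes the groups stood apart in each fraction.

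Among the other eIF3 genes, EIF3A, the largest subunit, rose in both fractions, to 36.5 and 36.6 RPM in J2 RNA with drug, against 22.4 and 20.9 RPM with vehicle (0.76 ± 0.07), and to 79.1 and 86.8 RPM in input with drug, against 46.0 and 46.8 RPM with vehicle (0.84 ± 0.06), with edgeR adjusted p of 2.8e-06 and 1.0e-06. EIF3H, another subunit, rose in both as well (0.82 ± 0.05 and 0.74 ± 0.05, adjusted p = 2.7e-07 and 6.2e-07). EIF3F, a subunit with an MPN domain like EIF3H, had 219.9 and 215 RPM with drug and 221 and 229 RPM with vehicle in J2 RNA, which overlapped. In the input EIF3F had 116 and 129.7 RPM with drug, against 69.6 and 69.4 RPM with vehicle, a rise of 0.82 ± 0.06 (edgeR adjusted p = 5.8e-07). EIF3J, a loosely bound subunit, fell in the input to 5.96 and 5.79 RPM with drug, against 12.2 and 11.2 RPM with vehicle (-1.0 ± 0.13, edgeR adjusted p = 7.3e-05), while in J2 RNA it had 6.42 and 8.26 RPM with drug and 7.40 and 7.44 RPM with vehicle, which overlapped. EIF3B, EIF3D, EIF3I and EIF3K fell in J2 RNA on the log2 scale, by 0.84, 0.99, 0.95 and 0.91. EIF3I, a small WD-repeat subunit, showed this with 169 and 162 RPM with drug, against 319 and 321 RPM with vehicle in J2 RNA (-0.95 ± 0.06, edgeR adjusted p = 2.8e-07), and 224 and 255 RPM with drug and 222 and 219 RPM with vehicle in the input (0.12 ± 0.06, adjusted p = 0.11, and 0.53 with median-of-ratios scaling). In the input EIF3B, EIF3D and EIF3G changed by -0.27, -0.20 and -0.12, and these turned to 0.14, 0.21 and 0.29 with median-of-ratios scaling.

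The helicase eIF4A unwinds the 5′ end of mRNAs, and eIF4B and eIF4H stimulate it. EIF4A1, EIF4A2, EIF4A3, EIF4B and EIF4H rose in both fractions, where 34.6% of all genes did in J2 RNA and 21.7% in the input. Their medians were 0.74 in J2 RNA and 1.21 in the input. EIF4A1, the main helicase (chr17:7572865-7578341, plus strand, the span of its listed introns on GRCh38), had 178 and 184 RPM in J2 RNA with drug, against 140.1 and 145 RPM in J2 RNA with vehicle. In input RNA it had 266 and 320.2 RPM with drug, against 109.9 and 108 RPM with vehicle. The groups stood apart in both, and the rise of 1.42 ± 0.08 (edgeR adjusted p = 1.1e-07) in the input was larger than that of 0.34 ± 0.08 (edgeR adjusted p = 0.0023) in J2 RNA (difference -1.08 ± 0.11, edgeR adjusted p = 8.6e-05). EIF4A2, its paralog, rose more in J2 RNA (difference 0.80 ± 0.19, edgeR adjusted p = 0.0070). It had 48.3 and 61.4 RPM in J2 RNA with drug, against 21.3 and 21.7 RPM in J2 RNA with vehicle, a rise of 1.35 ± 0.13 (edgeR adjusted p = 1.5e-05). In the input it had 29.6 and 36.3 RPM with drug, against 24.4 and 20.7 RPM with vehicle, a rise of 0.55 ± 0.14 (edgeR adjusted p = 0.0052) that was lost without input drug replicate 2 (0.39, adjusted p = 0.053) and without introns that overlap other genes' exons (0.38, adjusted p = 0.055). EIF4A3, the helicase of the exon junction complex and not of initiation, had 20.2 and 19.9 RPM with drug, against 16.9 and 16.8 RPM with vehicle in J2 RNA, and 35.3 and 42.6 RPM with drug, against 16.1 and 15.6 RPM with vehicle in the input. Its changes were 0.25 ± 0.09 (edgeR adjusted p = 0.030) and 1.29 ± 0.09 (edgeR adjusted p = 5.4e-07). EIF4B had 251 and 227 RPM with drug, against 138 and 124 RPM with vehicle in J2 RNA (0.87 ± 0.07, edgeR adjusted p = 3.2e-06). Its input values were 239 and 266 RPM with drug, against 109.5 and 109.6 RPM with vehicle (1.21 ± 0.08, edgeR adjusted p = 3.0e-07). EIF4H changed by 0.74 ± 0.06 (edgeR adjusted p = 8.4e-07) in J2 RNA and 0.45 ± 0.05 (edgeR adjusted p = 3.7e-05) in the input. The direction of these 5 genes held under both scalings.

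The cap-binding proteins moved apart from each other. EIF4E, which encodes the protein that binds the cap in eIF4F, was among the genes with fewest reads, and had 2.18 and 3.91 RPM in J2 RNA with drug, against 0.170 and 0.298 RPM in J2 RNA with vehicle. It had 0.809 and 0.812 RPM in input with drug, against 1.54 and 1.65 RPM in input with vehicle. The groups did not overlap in either fraction, drug being above vehicle in J2 RNA and below it in the input. The rise in J2 RNA was 3.68 ± 0.38 (edgeR adjusted p = 1.0e-05), the largest of the 43 genes, and came to 4.04 without J2 drug replicate 1 and 3.20 without replicate 2. The input change of -0.97 ± 0.34 (edgeR adjusted p = 0.026) was lost under median-of-ratios and TMM scaling and when any of the 4 input libraries was left out (adjusted p = 0.070 to 0.10). EIF4E2, a paralog that forms a repressor complex on the cap, went the other way, with 7.62 and 7.13 RPM with drug, against 10.3 and 10.8 RPM with vehicle in J2 RNA (-0.52 ± 0.14, edgeR adjusted p = 0.0060) and 11 and 14.0 RPM with drug, against 6.83 and 8.0 RPM with vehicle in the input (0.75 ± 0.14, edgeR adjusted p = 0.00064). EIF4E3, another paralog, had 0.20 and 0.264 RPM in J2 RNA with drug, against 1.15 and 1.63 RPM in J2 RNA with vehicle, a change of -2.57 ± 0.51 (edgeR adjusted p = 0.0011). EIF4E3 passed the minimum of 1 RPM in 2 libraries only through libraries with vehicle, where it is high. Its falls, counted among the lower genes of both fractions, cannot be read apart from that filter. In input RNA it had 0.319 and 0.917 RPM with drug and 2.06 and 1.33 RPM with vehicle. That input change, -1.45 ± 0.45 (edgeR adjusted p = 0.016), came to -0.89 without input drug replicate 1 (adjusted p = 0.11), -2.40 without input drug replicate 2 and -1.10 without input vehicle replicate 1 (adjusted p = 0.12).

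The scaffold EIF4G1 (chr3:184320723-184334726, plus strand, the span of its listed introns) had 187 and 192 RPM in J2 RNA with drug, against 393 and 388 RPM in J2 RNA with vehicle, and 151 and 157 RPM in input with drug, against 185 and 183 RPM in input with vehicle. Its groups stood apart in both, with changes of -1.05 ± 0.05 (edgeR adjusted p = 2.2e-08) in J2 RNA and -0.25 ± 0.05 (edgeR adjusted p = 0.00059) in the input, and the input value turned to 0.16 with median-of-ratios and 0.03 with TMM scaling. EIF4G3, its paralog, is seen through 5 listed introns of the 34 in its linked transcript. At these EIF4G3 also fell in J2 RNA, to 2.02 and 1.87 RPM with drug, against 4.47 and 3.68 RPM with vehicle (-1.07 ± 0.19, edgeR adjusted p = 0.00052). EIF4G2, also called DAP5, which lacks the part that binds eIF4E, rose there (0.82 ± 0.16, edgeR adjusted p = 0.0016). In the input EIF4G3 and EIF4G2 had changes of -0.09 ± 0.18 and -0.06 ± 0.15, neither called (adjusted p = 0.66 and 0.74), which turned to 0.31 and 0.35 with median-of-ratios scaling, EIF4G2 being called higher there (adjusted p = 0.018), and to 0.18 and 0.22 with TMM. The 3 genes of proteins that bind eIF4E were higher with drug in the input, where 21.7% of all genes were. EIF4EBP1 rose there by 0.15 ± 0.05, EIF4EBP2 by 0.73 ± 0.21 and EIF4ENIF1, the transporter of eIF4E, by 0.50 ± 0.18 (edgeR adjusted p = 0.031, 0.0091 and 0.032). In J2 RNA EIF4EBP1 and EIF4EBP2 rose (0.34 ± 0.05 and 0.68 ± 0.21, adjusted p = 0.00025 and 0.015, EIF4EBP2 coming to 0.32 and not called with the GC trend removed) and EIF4ENIF1 fell, to 2.00 and 2.00 RPM with drug, against 3.79 and 4.07 RPM with vehicle (-0.97 ± 0.19, edgeR adjusted p = 0.00094).

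Of the factors at the start codon and at subunit joining, EIF5 changed most in the input. EIF5, which triggers GTP hydrolysis by eIF2, had 10.4 and 17.6 RPM in J2 RNA with drug, against 5.64 and 5.56 RPM in J2 RNA with vehicle. In the input it had 4.77 and 5.06 RPM with drug, against 13.2 and 13.8 RPM with vehicle. The groups stood apart in both fractions, and EIF5 rose by 1.32 ± 0.21 (edgeR adjusted p = 0.00025) in J2 RNA and changed by -1.46 ± 0.21 (edgeR adjusted p = 0.00017) in the input, a difference of 2.78 ± 0.29 (edgeR adjusted p = 0.00012). EIF1, which guards start codon selection, had 79.6 and 123 RPM in J2 RNA with drug, against 50.04 and 53.1 RPM in J2 RNA with vehicle (0.98 ± 0.18, edgeR adjusted p = 0.0020). In the input EIF1 had 93.0 and 97.0 RPM with drug and 119.9 and 118 RPM with vehicle, which did not overlap, yet -0.33 ± 0.18 (edgeR adjusted p = 0.14) was not called. Without either J2 drug library, which enter the same estimate of spread, the same change had an adjusted p of 3.1e-05 or 2.9e-05, and with median-of-ratios scaling it turned to 0.09. EIF1AD, a nuclear relative of eIF1A, rose in the input to 12.3 and 13.1 RPM with drug, against 7.21 and 7.33 RPM with vehicle (0.80 ± 0.10, edgeR adjusted p = 4.7e-05), while in J2 RNA it had 0.24 ± 0.10 (adjusted p = 0.054). EIF6, which keeps the ribosomal subunits apart, had 71.0 and 66.4 RPM with drug, against 86.8 and 82.6 RPM with vehicle in J2 RNA (-0.30 ± 0.06, edgeR adjusted p = 0.0015), and 83.6 and 92.6 RPM with drug, against 68.2 and 67.6 RPM with vehicle in the input (0.38 ± 0.06, edgeR adjusted p = 0.00037). With the trend on GC content removed its J2 value turned to 0.13. EIF5A rose in both (0.36 ± 0.05 and 0.76 ± 0.05, adjusted p = 0.00013 and 4.6e-07). EIF5B, the GTPase of subunit joining, rose in J2 RNA (1.20 ± 0.26, edgeR adjusted p = 0.0022) and had -0.60 ± 0.26 in the input (adjusted p = 0.061).

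Genes that rose in J2 RNA had less GC in their annotated transcript than genes that fell, with medians of 42.8% for the 23 higher and 52.4% for the 15 lower. Over the 43 genes Spearman's rho between GC content and the drug effect was -0.66 in J2 RNA and 0.13 in the input, a description over genes that share their 8 libraries. The J2 libraries with drug also differed from each other along GC. Replicate 2 was above replicate 1 by over 0.5 on the log2 scale for 10 of 43 genes and below by over 0.5 for 2, against at most 2 of 43 genes in either direction in the other groups, and that gap had a rho of -0.61 with GC content. Leaving out J2 drug replicate 2, the higher of them for EIF3E, EIF3M and EIF2S3, gave rises of 2.30, 2.00 and 2.08, and leaving out replicate 1 gave 3.19, 2.76 and 2.70. With the GC trend of all genes removed, 19 genes rose and 14 fell in J2 RNA, and EIF3E, EIF3M, EIF4A2 and EIF5 rose by 1.95, 1.49, 0.67 and 0.73, all still called (edgeR adjusted p at most 0.00055). EIF1AX, EIF5A2, EIF5B and EIF3H came to -0.20, -0.30, 0.35 and 0.13 then, EIF1AX being called lower (adjusted p = 0.043) and the other 3 not called. EIF1B, EIF2B4, EIF2S1, EIF3L, EIF4EBP2 and EIF6 lost their J2 calls then. EIF1AD, EIF3F and EIF3G gained a call as higher in J2 RNA, and EIF3J as lower. In the input the rise of EIF4ENIF1 came to 0.25 and lost its call. EIF3G turned there from -0.12, called lower, to 0.18, called higher (edgeR adjusted p = 0.023). EIF1, EIF2B3, EIF3K, EIF3L and EIF5B gained a call as lower in the input, EIF2B3 at -0.74 (edgeR adjusted p = 0.011).

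**Figure D3:**
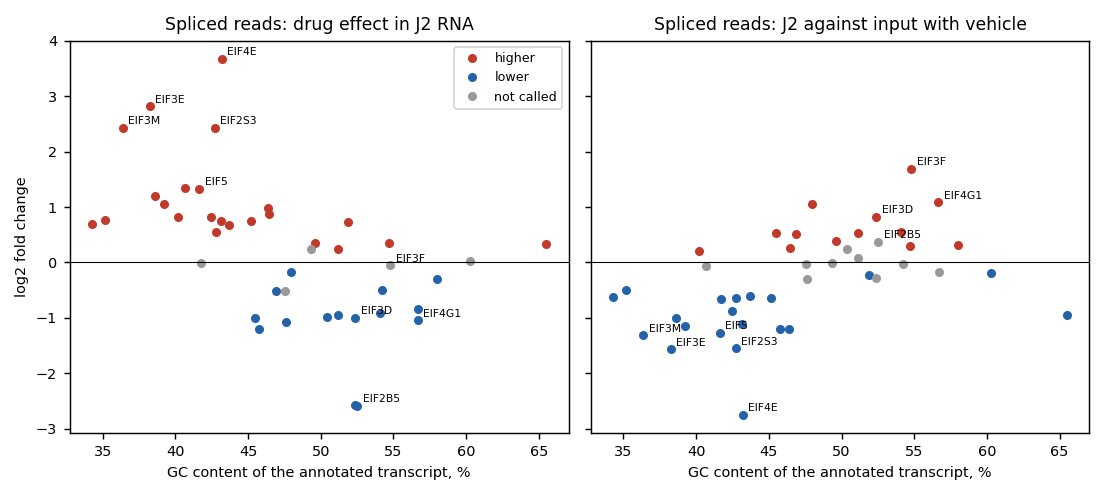
Log2 fold change of spliced reads against the GC content of the annotated transcript, in percent, for 43 genes, with the drug effect in J2 RNA on the left and J2 RNA against input with vehicle on the right. Colours give the call. The left cloud falls with GC content (rho -0.66) and the right one rises with it (rho 0.60).

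J2 RNA was also set against input within each treatment. With H3B-8800, 12 of 43 genes were higher in J2 RNA and 14 lower, where 28.1% and 27.3% of all genes were. With DMSO 13 were higher and 20 lower, where 16.4% and 44.2% were, and median-of-ratios scaling gave 20 and 12 and TMM 17 and 14. The genes highest in J2 RNA with drug were EIF3E (2.33 ± 0.29, edgeR adjusted p = 0.00086), EIF4E (1.91 ± 0.33, edgeR adjusted p = 0.00074), EIF3M (1.74 ± 0.24, edgeR adjusted p = 0.00036) and EIF5 (1.51 ± 0.21, edgeR adjusted p = 0.00022). With vehicle these 4 were lower in J2 RNA than in input, with log2 differences of -1.57, -2.75, -1.32 and -1.27 (adjusted p = 0.0046, 0.00020, 0.0020 and 0.00059). EIF3F had the largest excess in J2 RNA with vehicle, 221 and 229 RPM against 69.6 and 69.4 RPM in input (1.69 ± 0.06, edgeR adjusted p = 7.8e-08), followed by EIF4G1 (1.09 ± 0.05), EIF3L (1.05 ± 0.07) and EIF3D (0.82 ± 0.08), with edgeR adjusted p of 1.6e-07, 2.0e-06 and 1.8e-05. EIF3L, a PCI-domain subunit of eIF3, had 54.8 and 54.1 RPM in J2 RNA with vehicle, against 26.5 and 26.1 RPM in input with vehicle, and EIF3D, which can itself bind the cap, had 183 and 182 RPM against 104 and 103 RPM. With drug the lowest in J2 RNA past the threshold were EIF2B2 (-1.36 ± 0.16), EIF4G3 (-1.28 ± 0.19), EIF4ENIF1 (-1.24 ± 0.19) and EIF3A (-1.18 ± 0.06), with edgeR adjusted p of 5.2e-05, 0.00028, 0.00034 and 3.4e-07. EIF2S3 was low with vehicle (-1.55 ± 0.24, edgeR adjusted p = 0.00077) and high with drug (1.00 ± 0.22, edgeR adjusted p = 0.0055). The comparisons share libraries with the drug effects above. The difference between the drug effects, J2 RNA minus input, was above 0 for 14 genes and below 0 for 17 past the threshold, where 35.7% and 13.9% of all genes were.

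Intronic reads of the initiation factor genes rose with H3B-8800, as those of most genes did. Of the 29 genes tested, 24 rose and 0 fell in J2 RNA, where 70.8% of all genes rose and 5.18% fell, and 5 did not pass. In the input 22 rose and 1 fell, where 62.4% rose and 5.68% fell. In J2 RNA 0 fell at an unadjusted p under 0.05, and 0 with DESeq2, but 2 fell without J2 drug replicate 2 and 1 without J2 vehicle replicate 1. The median change was 2.38 in J2 RNA and 1.89 in the input, against 1.81 and 1.34 over all genes. Median-of-ratios scaling sets the typical gene near 0 and so measures genes against it, and with it 11 members were higher and 8 lower in J2 RNA and 12 and 6 in the input. Under median-of-ratios and TMM scaling alike, EIF1, EIF2S3, EIF3E, EIF3K and EIF4G1 turned from called higher to called lower in J2 RNA, and EIF1 in the input. EIF2B5, EIF3F and EIF4G3, not called as reported, were then called lower in J2 RNA. EIF3E, EIF3F, EIF4A2 and EIF4G3, also not called as reported, were then called lower in the input. EIF1AX, EIF2B2, EIF2S2, EIF3H and EIF6 lost their calls in both fractions.

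EIF4A1 was the gene with the largest rise in the input. It had 19.96 and 18.8 intronic RPM in J2 RNA with drug, against 1.32 and 2.11 RPM with vehicle, and 30.7 and 33.6 RPM in input with drug, against 1.29 and 1.20 RPM with vehicle. The changes were 3.49 ± 0.14 (edgeR adjusted p = 1.5e-24) and 4.69 ± 0.15 (edgeR adjusted p = 8.0e-28), and no groups overlapped. They rest on 1 intron. When introns that overlap an exon of another gene were left out, which drops intron 8 of EIF4A1, the change came to -0.24 in J2 RNA and 0.29 in the input, and neither was called. EIF4G1 rose in the input to 8.0 and 8.83 RPM with drug, against 2.17 and 2.53 RPM with vehicle (1.84 ± 0.16, edgeR adjusted p = 3.1e-13), and in J2 RNA to 6.64 and 5.96 RPM with drug, against 2.92 and 2.61 RPM with vehicle (1.19 ± 0.16, edgeR adjusted p = 1.2e-08). Relative to the typical gene, with median-of-ratios scaling, the J2 value of EIF4G1 turned to -0.56.

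Intronic reads of the eIF2B genes, 4 of which fell in spliced reads, were called higher with drug for 3 of 5 in J2 RNA and 5 of 5 in the input, where 70.8% and 62.4% of all genes were. With median-of-ratios or TMM scaling EIF2B1, EIF2B2 and EIF2B5 lost the input call, EIF2B2 and EIF2B3 lost the J2 call, and EIF2B5 was called lower in J2 RNA (-1.03 and -1.12). EIF2B4 had 1.82 and 1.79 intronic RPM with drug, against 0.113 and 0.175 with vehicle in J2 RNA, and 1.40 and 1.38 with drug, against 0.104 and 0.0392 with vehicle in the input. The changes were 3.61 ± 0.39 (edgeR adjusted p = 1.0e-10) and 4.25 ± 0.47 (edgeR adjusted p = 1.9e-10), and the input value was 5.06 without input vehicle replicate 1. EIF2B3 had 0.723 and 0.708 RPM with drug, against 0.0417 and 0.0784 RPM with vehicle in the input (3.51 ± 0.58, edgeR adjusted p = 1.2e-06). EIF3I, EIF4B and EIF5A rose by 3.54 ± 0.21, 3.45 ± 0.25 and 4.03 ± 0.30 there (edgeR adjusted p = 2.3e-18, 8.4e-16 and 2.5e-15). EIF4B had 4.51 and 5.48 intronic RPM with drug, against 0.562 and 0.353 with vehicle, and EIF3I 7.96 and 10.6 against 0.583 and 1.00. EIF5A had 4.43 and 4.25 intronic RPM with drug, against 0.333 and 0.196 with vehicle. EIF6 had 0.362 and 0.292 RPM with drug, against 0.0208 and 0.0392 RPM with vehicle, 31 reads against 3 over the 2 libraries, a ratio of 10.8 (95% counting interval 3.36 to 55.0, counting error only). EIF2S3 was the gene that fell, to 5.11 and 4.12 RPM with drug, against 6.33 and 5.90 RPM with vehicle in the input (-0.41 ± 0.16, edgeR adjusted p = 0.028), and the call was lost without input drug replicate 2 (-0.26) or input vehicle replicate 1 (-0.35). The input call was lost with DESeq2 too (adjusted p = 0.084). In J2 RNA EIF2S3 had 0.48 ± 0.19 (edgeR adjusted p = 0.021, called higher), which turned to -1.27 with median-of-ratios and -1.37 with TMM scaling, both called lower.

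In J2 RNA EIF5B had 61 reads in its introns with drug, against 0 with vehicle, at least 21.7-fold higher against a floor of 3 reads over the group. Without the J2 libraries with drug, neither EIF5B nor EIF5A2 would have passed the mean of 0.2 RPM, so their J2 rises cannot be read apart from that filter. EIF5B had 0.640 and 0.547 RPM with drug there and 0.0426 and 0.333 RPM with drug, against 0.0833 and 0.118 RPM with vehicle in the input, where the groups overlapped. EIF1AX, the X-linked gene of eIF1A, had 16 reads with drug, against 1 with vehicle in J2 RNA, a ratio of 17.1 (95% counting interval 2.65 to 717). EIF5A2, the paralog of EIF5A, had 0.440 and 1.06 RPM with drug, against 0.0377 and 0.0702 RPM with vehicle in J2 RNA (3.73 ± 0.69, edgeR adjusted p = 6.9e-06), and 2.96 without J2 drug replicate 2. EIF4A2 had 1.96 and 2.66 RPM with drug, against 0.340 and 0.140 RPM with vehicle (3.27 ± 0.35, edgeR adjusted p = 5.8e-11), but in the input 1.13 and 1.52 RPM with drug and 1.08 and 0.941 RPM with vehicle (0.39 ± 0.30, adjusted p = 0.25). Its J2 value was 4.02 without J2 vehicle replicate 1 and 2.76 without replicate 2. EIF1 had 13.8 and 12.2 RPM with drug, against 5.79 and 6.30 RPM with vehicle in J2 RNA (1.10 ± 0.11, edgeR adjusted p = 8.3e-12), and 21.6 and 22.2 RPM with drug, against 15.9 and 18.1 RPM with vehicle in the input (0.36 ± 0.10, edgeR adjusted p = 0.0017). The input call of EIF1 was lost without input vehicle replicate 1 (0.27, adjusted p = 0.052). Relative to the typical gene, with median-of-ratios scaling, the change of EIF1 turned to -0.64 in J2 RNA and -0.97 in the input. In input with drug 99.1% of its intronic reads lay in intron 1.

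The ratio of intronic to spliced reads of a gene, with 1 read added to each, sets the 2 kinds of reads against each other within a library. Over the 42 genes tested with limma, 29 ratios were higher and 3 lower with drug in J2 RNA, where 57.4% and 4.53% of all 8248 genes were. In the input 28 were higher and 1 lower, where 58.5% and 2.01% were. The medians of 1.97 and 1.90 lay near the all-gene medians of 1.67 and 1.69, and with median-of-ratios scaling 12 and 8 members were higher and lower in J2 RNA and 13 and 7 in the input. Without J2 drug replicate 2, 5 were lower in J2 RNA. The intronic share of a gene is given below as intronic reads in percent of intronic plus spliced reads.

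EIF2B4 had the largest change of the ratio in the input, while in J2 RNA EIF3B, EIF5B and EIF3J (4.02, 3.95 and 3.87) lay within its SE. EIF2B4 had an intronic share of 11.5 and 15.8% in J2 RNA with drug, against 0.691 and 1.04% with vehicle, and 13.7 and 12.0% in input with drug, against 0.622 and 0.234% with vehicle. Its log2 ratio changed by 4.03 ± 0.42 (limma adjusted p = 0.00013) and 4.86 ± 0.42 (limma adjusted p = 6.1e-05). All 5 eIF2B genes had a higher ratio with drug in the input, where 58.5% of all genes did. EIF2B5 had 20.5 and 20.7% against 2.65 and 3.36% (3.03 ± 0.34, limma adjusted p = 0.00021) and EIF2B3 had 32.7 and 24.1% against 1.80 and 2.68% (3.71 ± 0.56, limma adjusted p = 0.00095). EIF3I had 3.83 and 3.33% with drug, against 0.401 and 0.398% with vehicle in J2 RNA (3.19 ± 0.25, limma adjusted p = 3.0e-05), and 3.43 and 4.01% with drug, against 0.262 and 0.454% with vehicle in the input (3.44 ± 0.25, limma adjusted p = 2.6e-05). EIF3B had 5.30 and 4.96% with drug, against 0.228 and 0.442% with vehicle in J2 RNA (4.02 ± 0.28, limma adjusted p = 1.7e-05). EIF3J and EIF4G2 had few intronic reads. EIF3J had 27 with drug and 0 with vehicle in J2 RNA and 16 and 0 in the input, at least 9.61-fold and 5.56-fold higher intronic RPM against the floor of 3 reads over the group. EIF4G2 had 44 with drug and 1 with vehicle in the input, a ratio of intronic RPM of 45.9 (95% counting interval 7.81 to 1852).

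The ratio was lower with drug for EIF4E (-2.33 ± 0.78, limma adjusted p = 0.033), EIF3E (-2.01 ± 0.47, limma adjusted p = 0.0076) and EIF2S3 (-1.91 ± 0.36, limma adjusted p = 0.0028) in J2 RNA, where their spliced reads rose. EIF3E had an intronic share of 4.66 and 1.91% with drug, against 9.02 and 13.3% with vehicle, and its change was -2.67 without J2 drug replicate 1 and -1.35 without replicate 2. EIF2S3 had 8.84 and 6.08% with drug, against 19.5 and 26.9% with vehicle. That of EIF4E rests on 4 intronic reads with drug and 0 with vehicle, depends on the read added, and was lost without J2 drug replicate 1 (-1.63, adjusted p = 0.17) or J2 vehicle replicate 1 (-1.91, adjusted p = 0.14). In the input EIF3F was the gene with a lower ratio, at 0.979 and 1.13% with drug, against 1.97 and 1.64% with vehicle (-0.78 ± 0.23, limma adjusted p = 0.020), and the call was lost without either input drug replicate or without input vehicle replicate 1. Of EIF4A1 the share was 10.4 and 9.51% with drug, against 1.16 and 1.09% with vehicle in the input (3.25 ± 0.21, limma adjusted p = 1.6e-05), and without introns that overlap other genes' exons the change turned to -1.20 there and to -0.49 in J2 RNA.

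**Figure D4:**
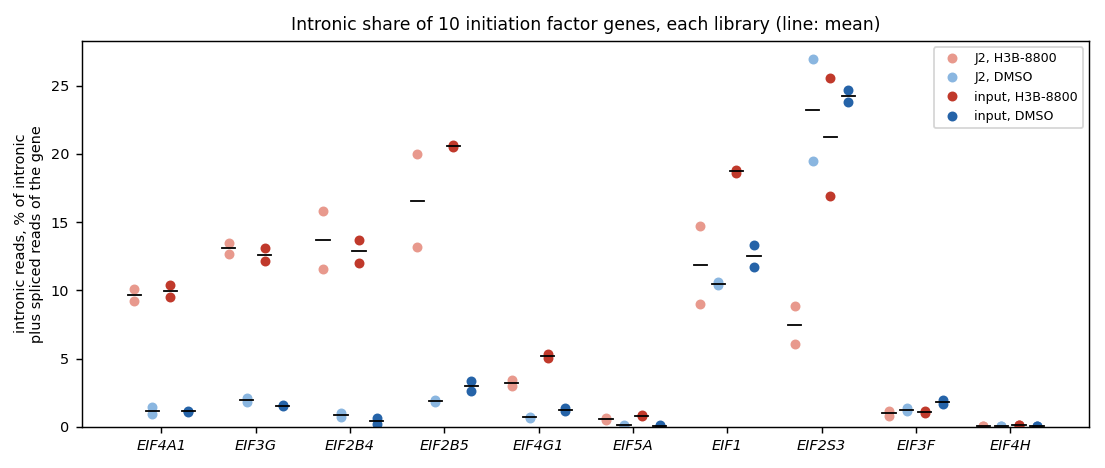
Intronic reads in percent of intronic plus spliced reads for 10 initiation factor genes, each point 1 library and each line the mean of 2. J2 RNA with drug and with vehicle stand left of input with drug and with vehicle. EIF2B4, EIF2B5 and EIF4A1 are higher with drug in both fractions, and EIF2S3 is lower with drug in J2 RNA.

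Between J2 RNA and input, intronic reads of 3 genes were higher in J2 RNA with drug and 11 lower, where 16.8% and 15.3% of all genes were. With vehicle 3 were higher and 6 lower, where 5.11% and 24.1% were, and median-of-ratios scaling turned that split to 8 and 5. With drug, 0 were higher without input drug replicate 1 or J2 drug replicate 2 and 1 without input drug replicate 2, while 3 were lower without input drug replicate 2, 6 without J2 drug replicate 1 and 7 without J2 drug replicate 2. With vehicle, 1 was higher without input vehicle replicate 1. EIF2B3 was higher in J2 RNA in both, with 1.46 and 1.49 RPM against 0.723 and 0.708 RPM in input with drug (1.04 ± 0.37, edgeR adjusted p = 0.029) and 0.340 and 0.140 RPM against 0.0417 and 0.0784 RPM in input with vehicle (1.93 ± 0.67, edgeR adjusted p = 0.026). The call of EIF2B3 with drug was lost with DESeq2 (adjusted p = 0.13), when any of the 4 libraries compared was left out (adjusted p = 0.11 to 0.14) and without introns that overlap other genes' exons (0.30, adjusted p = 0.71). The vehicle value of EIF2B3 was 1.18 and not called without J2 vehicle replicate 1 (adjusted p = 0.32). EIF5B had 0 intronic reads in J2 RNA with vehicle and 10 in input with vehicle. Of the ratios, 0 were higher and 8 lower in J2 RNA with drug (limma; 2.22% and 3.96% of all genes; 2 and 12 at an unadjusted p under 0.05), and 0 were higher and 5 lower with vehicle (4.18% and 9.01%; 3 and 9 unadjusted). Leaving out 1 of the 4 libraries compared left 0 or 1 lower ratios with drug, and 1 or 2 with vehicle without input vehicle replicate 1 or 2 or J2 vehicle replicate 1. EIF2B1 was lower in both (-1.72 ± 0.30 and -1.54 ± 0.30, limma adjusted p = 0.025 and 0.020). EIF5 was lower with drug, at 0.382 and 0.638% in J2 RNA against 4.68 and 3.19% in input (-2.76 ± 0.35, limma adjusted p = 0.011). The drug effect on intronic reads differed between J2 RNA and input for 9 genes, above 0 for 4 and below 0 for 5, where 17.6% and 2.02% of all genes did (3 below 0 without either input drug replicate, input vehicle replicate 1 or J2 vehicle replicate 2), and that on the ratio for 0 genes (limma; 1.58% and 1.01% of all genes; 3 and 5 members at an unadjusted p under 0.05).

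The files resolve each of the 382 introns. They cover 83.2% of the 459 introns of 1 annotated transcript for each of the 44 genes. That transcript was chosen, among those linked to the gene's RefSeq entry, to share most listed introns, and need not be the main one. Coverage differs by gene, with 5 of 34 introns listed for EIF4G3, 2 of 6 for EIF6 and 4 of 7 for EIF4E. Of the 382 introns, 300 had the mean of 20 reads needed for a test of their ratio. In J2 RNA 81 had a higher ratio with drug and 50 a lower one, where 39% and 6.06% of all 45220 introns did. In the input 100 had a higher ratio and 11 a lower one, where 39.7% and 2.57% did. Leaving out 1 library lowered these counts in several cases. In the input 66, 63 and 64 introns were higher without input drug replicate 1, input vehicle replicate 1 and input vehicle replicate 2, and 4 and 6 lower without input drug replicate 2 and input vehicle replicate 2. In J2 RNA 22, 31 and 25 were lower without J2 drug replicate 2, J2 vehicle replicate 1 and J2 vehicle replicate 2. The intronic reads of a gene with drug often lay in few of its introns, whether the gene rose or not. In J2 RNA with drug 18 genes had at least 100 intronic reads, and in 11 of them over 50% of these lay in 1 intron (median 63.5%). In input with drug the same held for 11 of 17 genes (median 67.2%).

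Single introns show the largest rises in the input. Intron 2 of the 12 of EIF2B4 (chr2:27369550-27369875, minus strand, GRCh38 as all coordinates here) had 68 and 81 intronic reads in J2 RNA with drug, against 1 and 4 with vehicle. In input RNA it had 33 and 44 with drug, against 0 and 0 with vehicle, while 81 and 61 spliced reads with drug, against 230 and 245 with vehicle, crossed it. Its log2 ratio rose by 5.28 ± 0.45 (limma adjusted p = 0.00032) in J2 RNA and 7.03 ± 0.45 (limma adjusted p = 0.00023) in the input. Intron 9 of EIF3G (chr19:10115586-10115683, minus strand) was 15.3% and 15.8% intronic with drug, against 0.315% and 0.143% with vehicle in the input (5.66 ± 0.45, limma adjusted p = 0.00036). Its neighbour, intron 10, (chr19:10115130-10115478, minus strand) was 47.8% and 49.2% intronic with drug, against 1.36% and 0.255% with vehicle in the input (6.94 ± 0.64, limma adjusted p = 0.00053). P2RY11 has an exon on the other strand at intron 10. Intron 8 of EIF3I (chr1:32228817-32229134, plus strand) was 4.49% and 6.0% intronic with drug, against 0.201% and 0% with vehicle in the input (5.03 ± 0.59, limma adjusted p = 0.0012). Intron 10 of EIF3I (chr1:32231020-32231114, plus strand) was 46.2% and 43.9% intronic with drug, against 0.513% and 0.685% with vehicle in the input (6.61 ± 0.35, limma adjusted p = 0.00020). Intron 5 of the 29 of EIF4G1 (chr3:184320723-184320926, plus strand) was 36.5% and 33.7% intronic with drug, against 0.798% and 1.02% with vehicle in the input (5.54 ± 0.58, limma adjusted p = 0.00078). Intron 14 of that gene (chr3:184324348-184324877, plus strand) was 25.8% and 22.0% intronic with drug, against 0% and 0% with vehicle in the input (6.26 ± 0.42, limma adjusted p = 0.00024). For EIF3I and EIF4G1 the groups did not overlap at any of these introns.

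Intron 8 of the 10 of EIF4A1 (chr17:7577707-7577826, plus strand) held 95.2% of the intronic reads of EIF4A1 in input with drug, with 1369 and 1543 reads there, against 11 and 11 with vehicle (5.46 ± 0.33, limma adjusted p = 0.00020). In J2 RNA it had 924 and 924 with drug, against 15 and 23 with vehicle (6.23 ± 0.33, limma adjusted p = 0.00012). An exon of AC016876.2 on the same strand overlaps it, so reads of that gene and of a retained intron cannot be told apart. Intron 6 of EIF2S2 (chr20:34093732-34096656, minus strand) had 39.8% and 41.4% with drug, against 0.617% and 1.13% with vehicle (5.57 ± 0.82, limma adjusted p = 0.0026), and intron 11 of EIF3L (chr22:37878172-37886764, plus strand), which overlaps an exon of AL022311.1 on the same strand, rose by 4.99 ± 0.55 (limma adjusted p = 0.00092). In the other direction, intron 5 of EIF3E had 22.0% and 12.2% intronic with drug, against 57.5% and 52.8% with vehicle in the input (-2.55 ± 0.46, limma adjusted p = 0.0057). Intron 2 of EIF3F (chr11:7991852-7992083, plus strand) had 6.85% and 7.20% with drug, against 22.8% and 20.2% with vehicle (-1.84 ± 0.36, limma adjusted p = 0.0072). Intron 1 of EIF4A3 was called lower too (-1.99 ± 0.51, limma adjusted p = 0.021), with 0 and 0 intronic reads with drug and 0 and 2 with vehicle beside 413 and 506 spliced reads with drug and 189 and 208 with vehicle, so that its value depends on the read added and on 2 intronic reads.

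**Figure D5:**
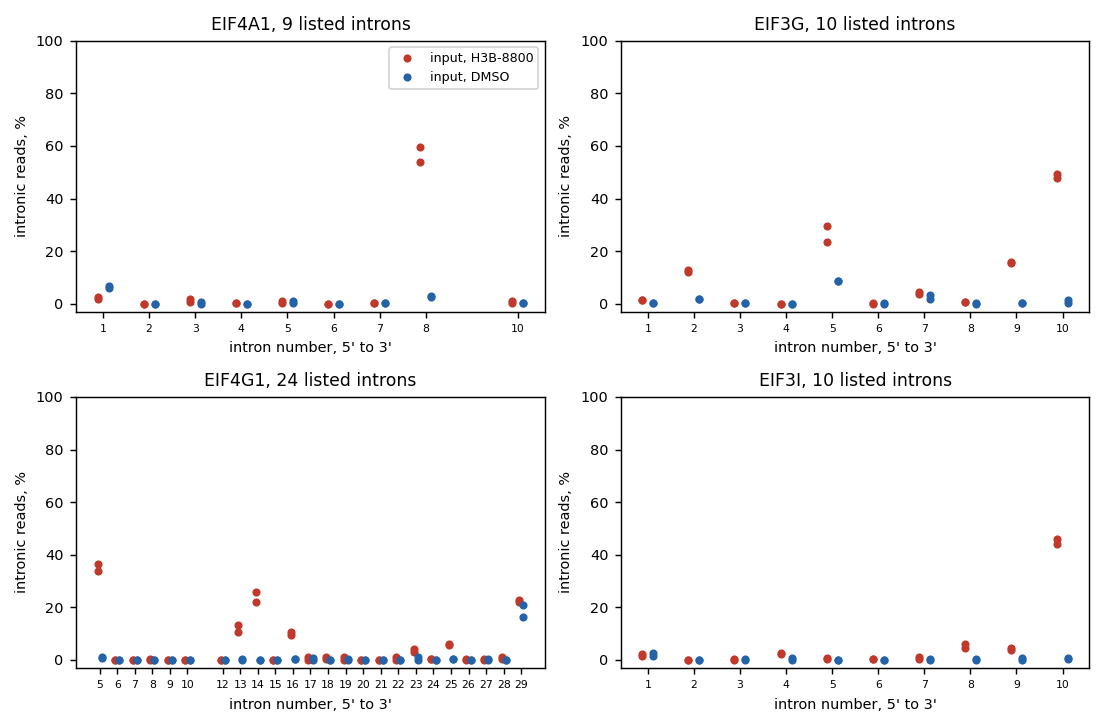
Intronic share in percent at each listed intron of EIF4A1, EIF3G, EIF4G1 and EIF3I, numbered along the transcript, in input with drug and input with vehicle, each point 1 library. With drug single introns stand out of their gene, such as intron 8 of EIF4A1 and intron 10 of EIF3G and EIF3I, while vehicle values stay low at these introns.

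Sequences of short introns are shown for some that responded and some that did not, of which EIF4A1 and EIF4G1 give 1 of each. They are reference sequence read from GENCODE 29 transcripts on GRCh38 that keep the intron, 5′ to 3′ on the strand of the gene, with the first GT and the last AG of the intron in capitals. The first 3 had a higher ratio with drug in the input and the next 3 were not called. The last line gives only the final 60 bases of EIF2B4 intron 2, the part where the spliceosome binds the branch point and the 3′ splice site.
EIF4A1 intron 8 (chr17:7577707-7577826, plus strand): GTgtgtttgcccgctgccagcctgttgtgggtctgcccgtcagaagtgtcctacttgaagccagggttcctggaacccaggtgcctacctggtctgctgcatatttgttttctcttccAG
EIF4G1 intron 16 (chr3:184325374-184325479, plus strand): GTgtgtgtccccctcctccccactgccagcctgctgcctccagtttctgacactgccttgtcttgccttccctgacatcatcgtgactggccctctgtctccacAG
EIF5A intron 4 (chr17:7311482-7311577, plus strand): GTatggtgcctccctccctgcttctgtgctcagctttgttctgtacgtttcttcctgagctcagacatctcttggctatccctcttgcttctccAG
EIF4A1 intron 10 (chr17:7578245-7578341, plus strand): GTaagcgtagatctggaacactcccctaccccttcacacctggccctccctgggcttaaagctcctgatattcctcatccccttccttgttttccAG
EIF3I intron 1 (chr1:32222445-32222537, plus strand): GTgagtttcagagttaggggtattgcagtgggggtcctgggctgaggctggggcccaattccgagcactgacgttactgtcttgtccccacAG
EIF4G1 intron 26 (chr3:184331365-184331471, plus strand): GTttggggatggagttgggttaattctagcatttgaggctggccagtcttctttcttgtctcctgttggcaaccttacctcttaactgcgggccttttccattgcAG
EIF2B4 intron 2 (chr2:27369550-27369609, minus strand): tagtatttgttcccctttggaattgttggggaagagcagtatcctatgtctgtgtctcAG

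At these introns the intronic share in the input was 10.5% and 9.36% with drug, against 0.296% and 0.317% with vehicle for intron 16 of EIF4G1 (4.21 ± 0.44, limma adjusted p = 0.00076). Intron 26 of the same gene had 0% and 0.449% with drug, against 0% and 0% with vehicle (1.10 ± 0.94, limma adjusted p = 0.38). Intron 4 of EIF5A, which an exon of GPS2 overlaps on the other strand, had 1.92% and 1.85% with drug, against 0.137% and 0.110% with vehicle (3.77 ± 0.35, limma adjusted p = 0.00050). Intron 10 of EIF4A1 had 0.222% and 1.08% with drug, against 0.376% and 0.413% with vehicle (-0.05 ± 0.84, limma adjusted p = 0.97), and intron 1 of EIF3I had 1.33% and 2.14% with drug, against 1.36% and 2.61% with vehicle (-0.16 ± 0.45, limma adjusted p = 0.80). Sequence was at hand for 69 tested introns. The median GC content was 46.5% for the 27 with a higher ratio in the input and 43.1% for the 39 not called, and the median share of pyrimidines in the 20 bases before the AG was 75.0% in both. The set holds only introns that some annotated transcript keeps, and their difference was not tested.

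Position was taken among the listed introns of a gene, so a first or last listed intron need not be so in the transcript. For the initiation factor genes, a higher ratio in the input was called for 15 of 34 last listed introns (44.1%). It was called for 77 of 226 internal introns (34.1%) and 8 of 40 first listed introns (20%). Over all tested introns the shares were 41.8%, 42.0% and 26.1%. The 100 introns with a higher ratio had a median length of 531.5 bases and the 189 not called 826 bases, against 719 and 1372 bases over all tested introns. In J2 RNA the shares were 11 of 34 (32.4%), 63 of 226 (27.9%) and 7 of 40 (17.5%), below the 42.7%, 40.9% and 25.6% over all tested introns. These differences were not tested.

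Other genes of the pathway were counted from chosen lists, beside the 34.6% higher and 39.4% lower of all genes in J2 RNA (median -0.03) and the 21.7% and 48.5% in the input (median -0.38). Of 15 tested accessory factors, a mixed list of genes that act with or on the canonical ones, 11 rose and 2 fell in spliced reads of J2 RNA, and 1 rose and 10 fell in the input (medians 0.56 and -0.83), where median-of-ratios scaling gave 4 higher and 7 lower. PDCD4, which inhibits eIF4A, rose in J2 RNA (1.37 ± 0.10, edgeR adjusted p = 7.7e-07), and EIF2D and DENR, which act in tRNA delivery and reinitiation, fell in the input (-0.83 ± 0.06 and -0.87 ± 0.08, edgeR adjusted p = 1.1e-06 and 5.6e-06). Of 8 genes for eIF2 kinases and eIF2 phosphorylation, 3 rose and 2 fell in J2 RNA, and 2 rose and 5 fell in the input (medians 0.06 and -0.78). EIF2AK2, the kinase PKR that double-stranded RNA activates, rose by 1.74 ± 0.33 (edgeR adjusted p = 0.00075) in J2 RNA and had -1.69 ± 0.33 (edgeR adjusted p = 0.0010) in the input. PPP1R15A, the phosphatase subunit GADD34, rose in both (1.09 ± 0.05 and 0.49 ± 0.05, adjusted p = 2.2e-08 and 7.1e-06). Of 12 genes of mTORC1 and MNK signalling, which controls eIF4E and its binding proteins, 4 rose and 7 fell in J2 RNA, and 2 rose and 7 fell in the input, near the shares of all genes there. Their medians were -0.34, turning to 0.10 with the GC trend removed, and -0.38, turning to 0.03 with median-of-ratios scaling, which gave 4 higher and 4 lower in the input. MKNK2, a kinase of eIF4E, fell in both (-1.63 ± 0.05 and -2.51 ± 0.05, adjusted p = 5.1e-09 and 6.7e-10), and so did MTOR (-1.19 ± 0.10 and -1.29 ± 0.10, adjusted p = 2.6e-06 and 9.0e-07).

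Elongation factors split, with 3 of 8 higher and 2 lower in J2 RNA and 4 higher and 3 lower in the input (medians 0.12 and 0.25). Of all genes 34.6% were higher and 39.4% lower in J2 RNA, and 21.7% and 48.5% in the input. Of 3 termination and recycling genes, 2 rose in J2 RNA and 2 fell in the input (medians 0.68 and -2.45). ETF1, the release factor eRF1, had 0.68 ± 0.25 in J2 RNA and -2.80 ± 0.27 in the input (edgeR adjusted p = 0.031 and 1.1e-05), and ABCE1, which splits ribosomes and is also among the accessory factors, fell in the input (-2.45 ± 0.28, edgeR adjusted p = 2.4e-05). MTIF2, the mitochondrial counterpart of eIF5B, rose in J2 RNA (1.29 ± 0.30, edgeR adjusted p = 0.0031) and fell in the input (-1.13 ± 0.30, edgeR adjusted p = 0.0078).

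Pseudogenes named for 20 of the 44 genes are annotated, 71 in all, with 13 for EIF4A1, 9 for EIF4B, 7 for EIF1 and 5 each for EIF4E and EIF4A2. How reads that map to several places were treated is not given in the sources used here, so values of these genes are uncertain. Of the 382 introns 42 overlap an exon of another gene, and whether strand was used in counting is not given either. In bulk RNA, fewer cells of a type and less RNA per cell cannot be told apart, and with 2 libraries a group the p-values rest on the spread between few cultures.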

How the data were processed

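The deposited tables list 142224 introns with 2 counts each, which by their values are reads inside the intron and all reads of the intron, the spliced reads being their difference. 18 introns lack values and were left out. The deposited RPKM values, made by the authors from the first count, the length and the depth, were used only to recover the depth per library. HISAT2 2.0.4 with hg38 is named per the submitters' processing notes, which also name mm10. The counting program, its use of strand and its treatment of reads with several places are not given in the sources used here. Coordinates match GENCODE 29 on GRCh38 for 142018 introns.

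Counts were summed per gene. edgeR 4.0.16 (quasi-likelihood, robust, library size as depth, no further scaling) tested spliced reads of 8461 genes and intronic reads of 6444 genes, and limma 3.58.1 the log2 ratio of intronic to spliced reads, with 1 read added, of 8248 genes and 45220 introns, in R 4.3.3. All 4 groups shared a fit, giving the drug effect in J2 RNA and input, J2 RNA against input with drug and vehicle, and the difference between the drug effects. p-values were adjusted over all features, with a threshold of 0.05. Scripts were tested on simulated data. Alternatives were DESeq2 1.42.0, other scalings and filters, a replicate block, and leaving out libraries.

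Values in every library are given for up to 6 genes each way per drug comparison and up to 4 each way otherwise, by the size of the change past the threshold, for their paired subunits, and for EIF4A1, EIF4A2, EIF4E, EIF4G1, EIF2S1, EIF5, EIF1 and EIF6. Up to 10 introns with the largest and 6 with the smallest change among those with a mean of 100 reads, and up to 3 genes per pathway list by p, are named. The members, gene lists and tests were chosen with earlier results of these data known. Depth was 47000000 to 57000000 reads per library. Intervals and the floor of 3 reads cover counting error only.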

Additional observations from a re-analysis of the deposited data

Results flagged for a closer look

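Each value here is a difference between 2 log2 drug effects, J2 RNA minus input, and was picked out because the test of this difference passed. In spliced reads the effect was above that in the input for EIF4E by 4.65 ± 0.51, EIF3E by 3.90 ± 0.41, EIF3M by 3.06 ± 0.34 and EIF5 by 2.78 ± 0.29 (edgeR adjusted p = 0.00011, 0.00068, 0.00025 and 0.00012). It was below that in the input for EIF4ENIF1 at -1.48 ± 0.27, EIF4E2 at -1.27 ± 0.19, EIF4A1 at -1.08 ± 0.11 and EIF3I at -1.07 ± 0.09 (edgeR adjusted p = 0.0013, 0.00054, 8.6e-05 and 2.9e-05). EIF4ENIF1 and EIF4E2 rose in the input and fell in J2 RNA.

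In intronic reads the effect was above that in the input for EIF5B by 7.03 ± 1.80, EIF4A2 by 2.88 ± 0.47, EIF2S3 by 0.88 ± 0.25 and EIF1 by 0.74 ± 0.15 (edgeR adjusted p = 0.0045, 1.9e-05, 0.0099 and 0.00033). EIF5B passed the minimum mean of 0.2 RPM only through J2 RNA with drug, so its difference and p-value cannot be read apart from that filter. The fitted value of EIF5B rests on 0 reads in J2 RNA with vehicle, is no bound, and came to 6.24 without input drug replicate 1 and 9.13 without replicate 2. That of EIF4A2 came to 3.63 without J2 vehicle replicate 1 and 2.37 without replicate 2. The effect was below that in the input for EIF5A at -1.47 ± 0.45, EIF3D at -1.28 ± 0.41, EIF3I at -1.28 ± 0.30 and EIF4A1 at -1.20 ± 0.21 (edgeR adjusted p = 0.017, 0.023, 0.0020 and 6.9e-05). The calls of EIF2S3, EIF5A and EIF3D were each lost when 1 library was left out, and those of EIF4A1 and EIF5A when introns that overlap other genes' exons were left out (-0.53 and -0.29). Those of EIF1 (0.32 and 0.24) and EIF2S3 (0.47 and 0.38) were lost with median-of-ratios and TMM scaling, and that of EIF3D with DESeq2. The part of GC content in the spliced differences was not tested beyond the values given with the trend removed.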

How the results depend on the processing

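Of the counts of genes and introns, 421 under all alternatives lay within 1.5 times the reported count and 97 did not. Of the values of named genes 1961 kept direction and side of the threshold, 166 lost and 7 gained a call, and 28 changed sign.

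Median-of-ratios scaling gave, as higher and lower, 25 and 6 spliced and 12 and 6 intronic calls and 13 and 7 ratios for the drug effect in the input. In J2 RNA it gave 11 and 8 intronic calls and 12 and 8 ratios, and with vehicle, J2 against input, 20 and 12 spliced and 8 higher intronic calls, with 4 lower ratios with drug and 2 intronic effects above those in the input. TMM scaling gave 12 and 6 intronic and 7 lower spliced calls in the input, 10 and 8 intronic calls in J2 RNA, 8 higher intronic calls for J2 against input with vehicle, and 2 intronic effects above those in the input. A minimum of 1 RPM of intronic reads gave 14 higher intronic calls and 14 higher ratios in the input, 14 higher ratios in J2 RNA, 1 difference each way between the effects on the ratio, 4 lower ratios for J2 against input with drug, and 1 higher and 2 lower with vehicle. DESeq2 gave 0 lower intronic calls in the input, 3 effects below those in the input, 0 higher and 6 lower for J2 against input with drug, and 1 higher with vehicle. Without introns that overlap other exons there were 2 lower ratios in the input, 3 intronic effects and 1 ratio effect below those in the input, and 1 higher intronic call for J2 against input with drug. Fitting only the 2 groups compared gave 2 lower intronic calls and 2 lower ratios in the input, 1 higher ratio for J2 against input with drug, and 1 higher intronic call and 0 lower ratios with vehicle. With 5 reads added, 29 introns were lower in the input and 94 in J2 RNA, 1 effect on the ratio was above and 6 below that in the input, and 1 ratio with drug and 3 with vehicle were higher in J2 RNA than in input. With 0.5 reads added or no filter, 4 ratios were lower in J2 RNA than in input with drug. A mean of 100 reads left 54 introns higher in the input and 20 lower in J2 RNA. The cause of these moves was not tested, except that stricter filters test fewer features.

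The log2 difference of replicate 2 minus replicate 1 within a group correlated over genes at -0.077 to 0.0999 with that within another group. Same-numbered libraries did not deviate together, so the numbers were not taken as pairs. With a replicate block 4 ratios were lower in J2 RNA than in input with drug, against 8 without the block, and no other count of calls moved by over 1.5 times.

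Among the genes named in any case these values changed sign. With median-of-ratios scaling EIF1 came to -0.97 (intronic), -1.05 (ratio) and 0.085 (spliced), EIF4A2 to -0.94 (intronic), EIF2S1 to 0.31 (spliced) and -0.56 (ratio), EIF4E to -0.82 (ratio) and EIF4G1 to 0.16 (spliced) in the input, and EIF1 to -0.64 (intronic) and -1.66 (ratio) and EIF4G1 to -0.56 (intronic) in J2 RNA. With TMM EIF1 came to -0.98 and EIF4A2 to -0.96 (intronic), EIF2S1 to 0.18 and EIF4G1 to 0.028 (spliced) in the input, and EIF1 to -0.74 and EIF4G1 to -0.66 (intronic) in J2 RNA. Without introns that overlap other exons EIF4A2 came to -0.54 (intronic) and EIF4A1 to -1.20 (ratio) in the input, and EIF4A1 to -0.24 (intronic) and -0.49 (ratio) in J2 RNA. EIF4E came to -0.14 in the input with 0.5 reads added, EIF5 to -0.36 in J2 RNA with 5 (both ratios), and EIF6 to 0.13 in J2 RNA with the GC trend removed (spliced). Of other genes, EIF2S3 (intronic, J2 RNA) and EIF3G (spliced, input) changed sign and call with both scalings, as given above with EIF2B1, EIF2B5, EIF3B, EIF3D, EIF3E, EIF3K, EIF4G2 and EIF4G3.

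Leaving out each library in turn gave these ranges of counts. For the drug effect in J2 RNA they were spliced calls 20 to 24 higher and 13 to 15 lower, intronic calls 21 to 24 higher and 0 to 2 lower, ratio calls 26 to 29 higher and 2 to 5 lower, introns 56 to 80 higher and 22 to 50 lower. For that in the input they were spliced calls 11 to 16 higher and 7 to 17 lower, intronic calls 18 to 22 higher and 0 to 1 lower, ratio calls 22 to 29 higher and 0 to 1 lower, introns 63 to 105 higher and 4 to 12 lower. For the difference between them they were spliced calls 13 to 16 higher and 14 to 18 lower, intronic calls 3 to 6 higher and 3 to 4 lower, ratio calls 0 to 1 higher and 0 to 1 lower. For J2 against input with drug they were spliced calls 11 to 16 higher and 13 to 17 lower, intronic calls 0 to 4 higher and 3 to 11 lower, ratio calls 0 higher and 0 to 9 lower. For J2 against input with vehicle they were spliced calls 10 to 14 higher and 15 to 21 lower, intronic calls 1 to 3 higher and 4 to 6 lower, ratio calls 0 to 1 higher and 1 to 5 lower. Among values of named genes that changed sign this way, in J2 RNA the log2 ratio of EIF1 ran over -0.24 to 0.56 and that of EIF2S1 over -1.19 to 0.035. In the input that of EIF4E ran over -0.59 to 1.03 and the spliced change of EIF2S1 over -0.22 to 0.019.

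With 2 libraries a group, a single culture can decide a call, and genes with few intronic reads, such as EIF4E, EIF1AX and EIF5B, are limited by depth. The GC correction was chosen after the values were seen.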
